A study of Mus musculus with 6 samples.

Results

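The nuclear factor I (NFI) transcription factors are encoded in the mouse by the 4 genes Nfia, Nfib, Nfic and Nfix. The members were taken by gene symbol from the expression table, which lists 17920 genes. All 4 are in it, and all 4 were among the 13669 genes that passed a filter on low counts. The table holds mRNA sequencing of cells from mouse cortex at E13.5, a mid-gestation embryonic stage, that were cultured, infected with a lentivirus and kept under puromycin, an antibiotic that kills uninfected cells. In 3 libraries the virus carried a control short hairpin RNA (these are labelled WT), and in 3 it carried a hairpin against Ybx1, an RNA-binding protein that reads 5-methylcytosine in mRNA (labelled KD). By this account, which is that of the study's methods, both groups share the culture, the virus and the selection, and WT means that Ybx1 was not targeted, not that the cells were untreated. The design text given with the data speaks instead of a deletion of Ybx1 in the cortex. The sample titles name only mouse cortex, WT or KD, the stage, RNA-seq and the replicate, so the culture is not stated there. The study describes 2 hairpins against Ybx1 and the labels do not say which was used, the labels call the material brain, and the cultures hold several cell types. The question put to these data was what the level of each NFI gene was in the cultures and whether it differed after Ybx1 knockdown.

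NFI proteins bind DNA as dimers of any pair of family members, at the palindrome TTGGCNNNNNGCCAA or at a single arm of it, TTGGC, through a DNA-binding domain near the amino terminus that is nearly the same in all of them. In the developing forebrain they are made by radial glia, the stem cells of the cortex, and by young neurons. They are known for moving progenitors from self-renewal towards neuron production, for the start of astrocyte production, and for the formation of the hippocampus and the corpus callosum. Nfia, Nfib and Nfix are the members best known for these roles in the brain, and Nfic is best known for tooth root development.

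Because the family is similar in sequence, the first point is whether reads can be assigned to a member. The stretches below show it: they are 90 coding bases of each gene at the start of the DNA-binding domain, in exon 2, read from the GRCm38 genome with the GENCODE annotation and written 5′ to 3′ on the strand of the gene. Capitals mark the 24 positions at which the members are not all alike. The stretches lie in Nfia at chr4:97783103-97783192 on the plus strand, in Nfib at chr4:82498659-82498748, in Nfic at chr10:81420688-81420777 and in Nfix at chr8:84772205-84772294, the last 3 on the minus strand.
Nfia: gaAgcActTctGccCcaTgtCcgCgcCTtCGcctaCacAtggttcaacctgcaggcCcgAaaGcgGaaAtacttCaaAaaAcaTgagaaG
Nfib: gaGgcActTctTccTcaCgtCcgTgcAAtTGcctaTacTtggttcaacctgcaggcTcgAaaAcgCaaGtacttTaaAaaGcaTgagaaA
Nfic: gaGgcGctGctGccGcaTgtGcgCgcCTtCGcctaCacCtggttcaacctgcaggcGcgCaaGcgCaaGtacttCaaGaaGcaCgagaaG
Nfix: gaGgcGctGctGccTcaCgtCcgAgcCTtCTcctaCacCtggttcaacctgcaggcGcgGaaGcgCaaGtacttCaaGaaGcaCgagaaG
Most of the capitals stand at the last base of a codon, and the longest run that all members share in this window is 17 bases. Over a 219-base block of this domain 70.8% of positions were the same in all members, and identity between a pair of members ranged from 77.6% for Nfib and Nfic to 89% for Nfic and Nfix. Over whole annotated transcripts the longest run shared by any pair was 32 bases, between Nfic and Nfix, and the shortest of the 6 such maxima was 18 bases, between Nfia and Nfic. The deposited estimated counts of all 4 genes were whole numbers in all 6 libraries, as they are where no read was divided between genes.

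Each member is a long gene with several transcripts in this annotation. Nfia (Entrez Gene 18027) lies at chr4:97772734-98118874 on the plus strand with 8 transcripts, and Nfib (18028) at chr4:82290173-82705750 on the minus strand with 12. Nfic (18029) lies at chr10:81396186-81455635 on the minus strand with 7 transcripts, and Nfix (18032) at chr8:84699876-84800344 on the minus strand with 8. Exon bases are shared with genes on the opposite strand in 3 of the 4, which are E130114P18Rik for Nfia, Gm16104 for Nfic, and Lyl1 and G430095P16Rik for Nfix. Whether counting used the strand is not given in the sources used here. If it did not, a part of the reads of these 3 members could not be told from such a neighbour. The whole estimated counts given above do not show which setting was used. Nfib shares no exon bases with another gene in this annotation.

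Promoter windows of 300 bases, 250 before and 50 after a RefSeq start site (build GRCm38.p6), were on hand for Nfia, Nfic and Nfix. Those of Nfic and Nfix that sit at an annotated coding transcript start are shown so that the NFI site can be looked for in the genes' own promoters, and capitals mark TTGGC or its reverse complement. The windows are chr10:81427124-81427423 for Nfic and chr8:84773361-84773660 for Nfix, both on the minus strand.
Nfic: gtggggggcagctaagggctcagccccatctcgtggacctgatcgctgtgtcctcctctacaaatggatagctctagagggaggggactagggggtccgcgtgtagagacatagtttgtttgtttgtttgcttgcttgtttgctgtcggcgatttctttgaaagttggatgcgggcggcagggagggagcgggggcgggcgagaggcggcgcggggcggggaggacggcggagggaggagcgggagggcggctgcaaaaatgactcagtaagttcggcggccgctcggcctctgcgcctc
Nfix: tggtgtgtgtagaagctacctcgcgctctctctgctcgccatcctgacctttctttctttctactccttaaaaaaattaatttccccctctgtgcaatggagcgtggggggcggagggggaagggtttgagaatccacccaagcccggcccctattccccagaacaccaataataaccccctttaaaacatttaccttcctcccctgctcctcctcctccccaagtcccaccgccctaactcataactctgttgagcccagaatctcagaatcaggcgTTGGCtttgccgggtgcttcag
The Nfix window shown held 1 TTGGC and the Nfic window 0, and neither held the full palindrome. Other Nfix windows, 521, 1459 and 5713 bases from the nearest coding transcript start, held 2, 1 and 0 arms. The Nfia window, 190791 bases from such a start, held 0. None of these held the full palindrome. Searched on both strands, TTGGC was present in 46.7% of 32851 promoter windows of this length and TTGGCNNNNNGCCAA in 0.0365%, so a single arm in a window is common.

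The targeted gene was examined before the family. Ybx1 stood at 618, 615 and 653 CPM (counts normalised to equal library size, scaled by the TMM method) in WT replicates 1 to 3, and at 98.3, 92.2 and 159 CPM in KD replicates 1 to 3. All KD libraries were far below all WT libraries, with a log2 fold change of -2.43 ± 0.18 (SE). Its adjusted p was 0.000182, by the quasi-likelihood test of edgeR, adjusted by Benjamini-Hochberg over all genes tested, as for every adjusted p below. Library totals were 16294635 to 16497505 estimated counts, so depth was nearly equal, and the NFI genes had between 740 and 9016 counts in a library.

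The members differed widely in level. On the length-corrected TPM scale (which divides by transcript length), Nfix was the most abundant at 139 ± 54.8 TPM in WT (mean ± SD, n = 3 libraries, as below), followed by Nfib at 62.8 ± 14.2, Nfic at 15.3 ± 0.348 and Nfia at 13.8 ± 2.49. In KD the order was the same, with Nfix at 186 ± 53.8 TPM, Nfib at 89.9 ± 10.01, Nfic at 18.2 ± 1.41 and Nfia at 17.1 ± 0.651. Nfix ranked 1304 and Nfib 3018 among the 17920 listed genes by mean TPM in WT, while Nfic ranked 8169 and Nfia 8531. In TPM, Nfix lay above Nfib, and Nfib above the lower members, in each of the 6 libraries. Nfic and Nfia did not separate in TPM: Nfic was the higher of the pair in 5 libraries and Nfia in WT replicate 3. The order depends on the division by length. In CPM, Nfib was above Nfix in replicate 1 of WT (207 against 205) and of KD (339 against 309). Nfia was above Nfic in CPM in each library. The transcript length behind each estimate, worked out from the deposited counts and FPKM, was 9205 to 9283 bases for Nfia, 8684 to 8723 for Nfib, 5998 to 6043 for Nfic and 5138 to 5165 for Nfix, so it varied by at most 0.847% between libraries of a gene.

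**Figure D1:**
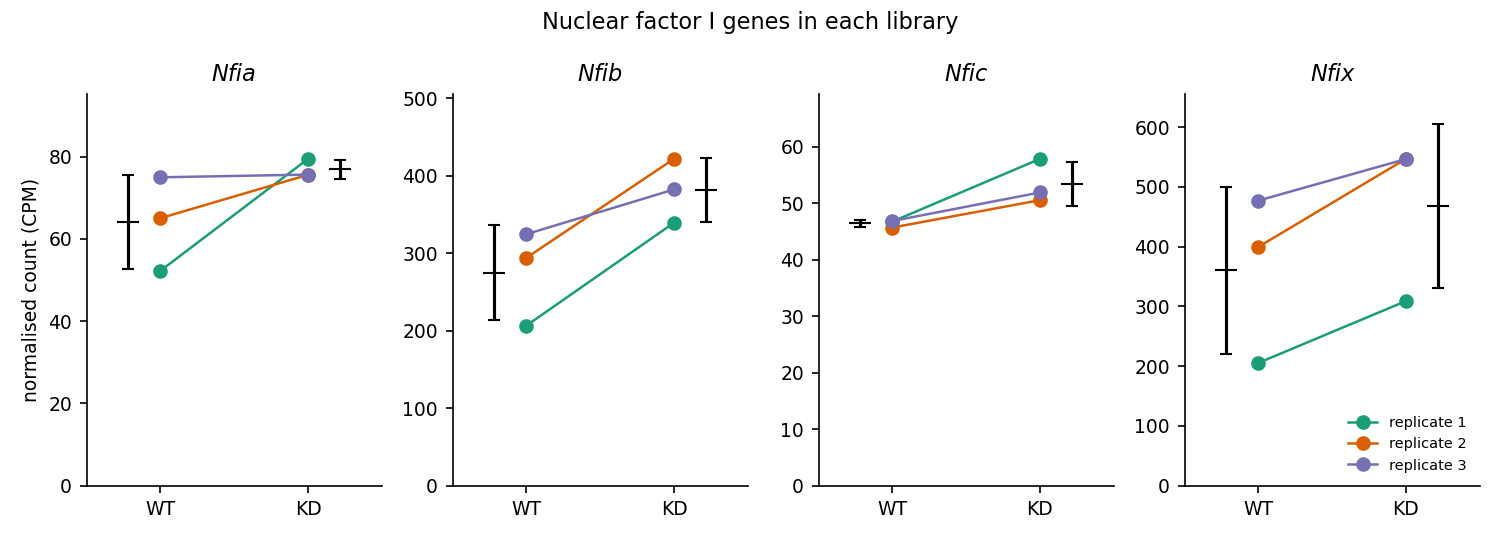
Normalised counts (CPM, linear axis from 0) of Nfia, Nfib, Nfic and Nfix in the 3 WT and 3 KD libraries. Lines join libraries with the same replicate number, and black bars give the mean ± SD of a group. In Nfia, Nfib and Nfic every KD point lies above every WT point, whereas for Nfix the groups overlap and replicate 1 (green) is lowest in both, with each line still going up.

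Nfib rose after Ybx1 knockdown. It was at 207, 294 and 325 CPM in WT replicates 1 to 3 and at 339, 422 and 382 CPM in KD replicates 1 to 3. The lowest KD library was above the highest WT library, and WT replicate 1 was the lowest of all. The log2 fold change was 0.47 ± 0.15 (SE, adjusted p = 0.0475), from 275 ± 61.2 to 381 ± 41.2 CPM. Within same-numbered libraries the increase was 1.64-fold, 1.43-fold and 1.18-fold. Same-numbered libraries deviated together over genes, so the replicate number was also put in the model as a block, and the log2 fold change was 0.49 ± 0.07 (adjusted p = 7.63e-05). The unpaired call was close to the threshold. It was lost without WT replicate 1 (log2 fold change 0.30), WT replicate 2 (0.52), KD replicate 2 (0.39) or KD replicate 3 (0.47), with adjusted p between 0.0224 and 0.154 over the 6 omissions.

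Nfix, the most abundant member, was the most variable. It was at 205, 400 and 477 CPM in WT replicates 1 to 3 and at 309, 547 and 546 CPM in KD replicates 1 to 3. The groups overlapped, since KD replicate 1 was below WT replicates 2 and 3, but replicate 1 was the lowest library in each group and KD was the higher library at every number. The means were 361 ± 140 CPM in WT and 467 ± 137 CPM in KD, and the unpaired test did not pass (log2 fold change 0.37 ± 0.30, SE, adjusted p = 0.392). Nfix rose when libraries were compared within replicate number, by 1.504-fold, 1.37-fold and 1.15-fold, and with the block the log2 fold change was 0.41 ± 0.06 (adjusted p = 0.000133). The SE of Nfix was 4.91 times smaller with the block, against a median of 1.07 times over all genes tested. Without both replicate 1 libraries the unpaired fit passed as well, at 0.32 on the log2 scale (adjusted p = 0.0243).

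The spread of Nfix among control cultures was itself large. Its coefficient of variation over the WT libraries was 38.8%, larger than that of 99.5% of 11439 genes with a mean of at least 5 CPM, whose median was 5.88%. For Nfib it was 22.3% and for Nfia 17.8%, whereas for Nfic it was 1.39%. Replicate 1 also differed in markers of other cells. The summed level of 8 ventral interneuron markers (Gad1, Gad2, Dlx1, Dlx2, Dlx5, Lhx6, Nkx2-1 and Slc32a1, all tested) was 1185, 934 and 756 CPM in WT replicates 1 to 3 and 1168, 908 and 771 CPM in KD replicates 1 to 3. It was thus highest in replicate 1 of both groups, where Nfix was lowest. The sum of 8 oligodendrocyte lineage markers had the opposite order, lowest in replicate 1, with 404 CPM (WT) and 350 CPM (KD) against up to 556 and 457 CPM. The sum of 10 neuron markers was also lowest there, with 5791 CPM (WT) and 5706 CPM (KD) against up to 6496 and 6528 CPM. That sum was mostly Map2, Stmn2 and Tubb3, and not every neuron marker followed it. Bcl11b was highest in KD replicate 1, at 249 CPM against 228 and 211 CPM in KD replicates 2 and 3. The radial glia and astrocyte sums were lowest in WT replicate 1 but highest in KD replicate 1. The part of these cells in the level of Nfix was not tested, and in bulk RNA fewer cells of a type and less RNA per cell cannot be told apart.

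Nfia had a smaller difference, which was largest at replicate number 1. It was at 52.3, 65.1 and 75.0 CPM in WT replicates 1 to 3 and at 79.5, 75.6 and 75.6 CPM in KD replicates 1 to 3. The KD libraries were close together and all just above WT replicate 3, and the WT libraries were spread. The means were 64.1 ± 11.4 and 76.9 ± 2.22 CPM, and the unpaired test did not pass after adjustment (log2 fold change 0.26 ± 0.11, SE, unadjusted p = 0.0413, adjusted p = 0.116, edgeR). KD over WT was 1.52-fold, 1.16-fold and 1.009-fold at replicate numbers 1 to 3. With the block Nfia rose by 0.27 ± 0.08 on the log2 scale (adjusted p = 0.0189), and without both replicate 1 libraries the log2 fold change of the unpaired fit was 0.11. Without WT replicate 3 the unpaired test passed (0.39, adjusted p = 0.0199).

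Nfic rose by a small amount. It was at 46.7, 45.7 and 46.8 CPM in WT replicates 1 to 3 and at 57.8, 50.5 and 51.9 CPM in KD replicates 1 to 3. The WT libraries were nearly identical in level, and every KD library was above them. The log2 fold change was 0.20 ± 0.06 (SE, adjusted p = 0.0480), from 46.4 ± 0.643 to 53.4 ± 3.89 CPM, or 1.24-fold, 1.11-fold and 1.11-fold by replicate number. The block changed neither the size nor the error, at 0.20 ± 0.06 (adjusted p = 0.0180). The unpaired call was lost when any of the 6 libraries was left out, at adjusted p between 0.0637 and 0.141, with log2 fold changes of 0.14 to 0.24.

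Over the family, 2 of 4 members (Nfib and Nfic) were called higher and 0 lower in the unpaired fit. Of all genes tested, 24.0% were called in either direction, 12% higher and 11.9% lower. With the replicate block all 4 members were called higher and 0 lower, beside 18.6% of genes called higher and 18.1% called lower. KD lay above WT without overlap in 3 members, beside 21.0% of genes, and within all 3 replicate numbers in all 4 members, beside 31.0% of genes. The median log2 fold change of the members was 0.32 and that of all genes tested was -0.00131. With other tools the count was smaller, since DESeq2 called 0 of the 4 and limma-voom 1. Leaving out 1 library gave 2 (WT replicate 3 omitted), 1 (KD replicate 1 omitted, Nfib alone) or 0 (any other omitted). Without both replicate 1 libraries it was 2 (Nfib and Nfix). Without both replicate 2 libraries it was 0, in a fit that called 169 of all genes higher.

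**Figure D2:**
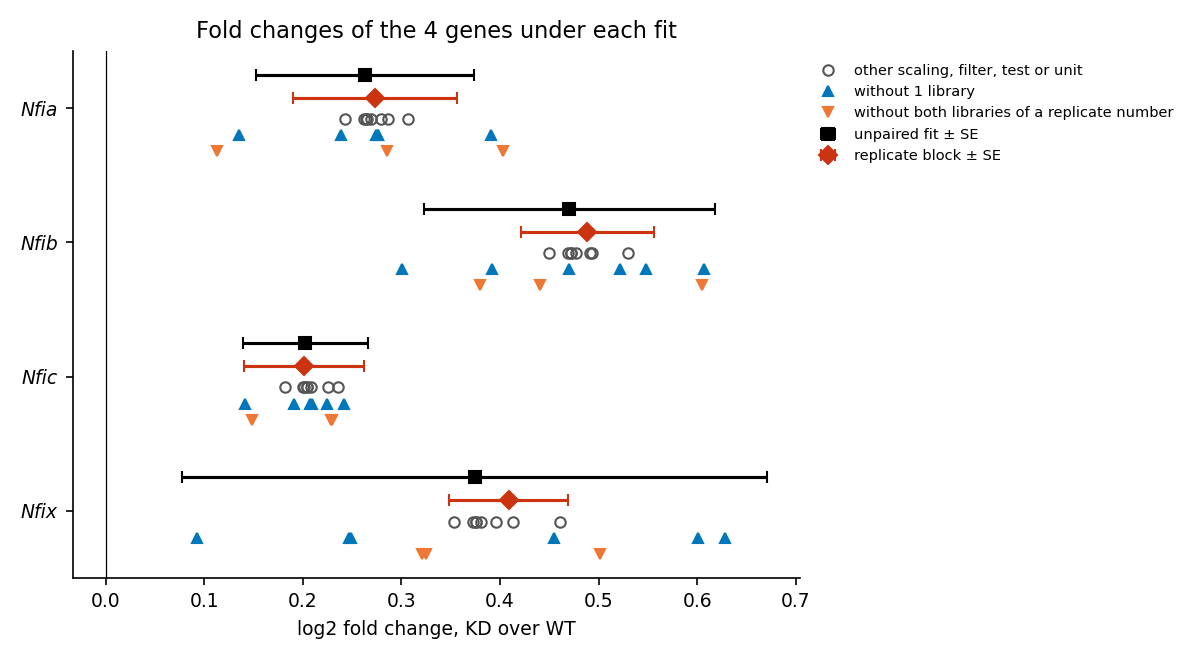
Log2 fold change, KD over WT, of each NFI gene in the unpaired edgeR fit and with the replicate block (bars are ± SE), under other scalings, filters, tests and the TPM unit (circles), without 1 library (blue triangles) and without both libraries of a replicate number (orange triangles). All points are above 0, from 0.09 to 0.63 for Nfix, which has the widest spread, and from 0.14 to 0.24 for Nfic, which has the narrowest.

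The direction of all 4 genes was the same in each of 18 alternative fits, which the plot of fold changes by fit shows. The log2 fold change ranged from 0.11 to 0.40 for Nfia, 0.30 to 0.61 for Nfib, 0.14 to 0.24 for Nfic and 0.09 to 0.63 for Nfix. The call was less stable than the direction. Nfib passed the threshold in 11 of these fits, Nfic in 5, Nfia in 3 and Nfix in 2.

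The amount of NFI mRNA as a whole was then considered by adding the TPM of the members. The sum was 152.7, 247.8 and 292.8 TPM in WT replicates 1 to 3 and 242.9, 355.9 and 336.4 TPM in KD replicates 1 to 3. The groups overlapped at KD replicate 1, and KD was the higher library at each number. The means were 231 ± 71.5 and 312 ± 60.4 TPM, a ratio of 1.35, with ratios by replicate number from 1.15 to 1.59. No test was run on the sum, since it is mostly the values of Nfix and Nfib given above.

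**Figure D3:**
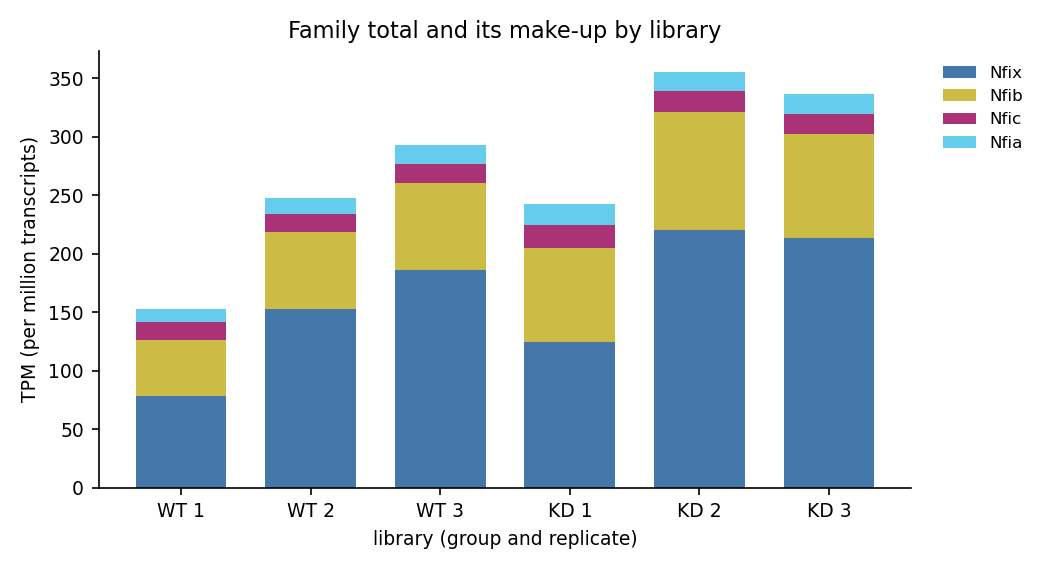
Summed TPM of the 4 NFI genes in each library (linear axis from 0), divided by gene. Nfix makes up 51.7% of the sum in WT replicate 1 and 51.2% in KD replicate 1, and 61.6% to 63.6% in the other libraries, and the sum is lowest in replicate 1 of each group.

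The make-up of the sum differed more between replicate numbers than between groups. Nfix made up 58.9 ± 6.37% of it in WT and 59.0 ± 6.76% in KD, Nfib 27.8 ± 2.79% and 29.3 ± 3.59%, Nfic 7.14 ± 2.55% and 6.09 ± 1.82%, and Nfia 6.17 ± 1.04% and 5.68 ± 1.44%. With CPM in place of TPM the mean WT and KD shares were 47.2% and 47.0% for Nfix and 37.4% and 39.3% for Nfib. For Nfia they were 8.81% and 8.06%, and for Nfic 6.63% and 5.63%. Whether any pair of members moved unequally was tested on the log2 ratio of their TPM in all 6 pairs. The largest difference of a ratio was for Nfib over Nfic, which was 0.29 higher in KD on the log2 scale. Within replicate number, 4 of the 6 ratios moved the same way at all 3 numbers. These were Nfib against each other member and Nfic against Nfix: Nfib over Nfic and Nfib over Nfix (0.07) were higher in KD and Nfia over Nfib (-0.21) and Nfic over Nfix (-0.21) were lower. None of the 6 differences passed an exact permutation test over libraries (two-sided p from 0.3 to 0.8, 0.72 to 0.80 after adjustment over the 6 pairs). With 3 libraries against 3 the smallest possible p is 0.1, so this test could not have passed. An exact sign-flip test within replicate number, added after the data were seen, gave p of 0.25 to 0.75, where 0.25 is the smallest that 3 pairs allow.

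Genes that act above or beside the NFI genes were called in 1 direction in the unpaired fit. Of 21 upstream regulators and partners, 9 were called higher and 0 lower, and 13 higher and 2 lower with the block, with a median log2 fold change of 0.31. Among all genes tested the shares were 12% higher and 11.9% lower, and 18.6% and 18.1% with the block. The number called higher was 6 without WT replicate 2 and 11 without WT replicate 3. The POU factor Pou3f2, which acts in progenitors and upper-layer neurons, went from 37.5 ± 3.45 to 70.4 ± 12.7 CPM (log2 fold change 0.91, adjusted p = 0.00186, edgeR). The receptor Notch2 rose by 0.75 on the log2 scale (adjusted p = 0.0116, and 0.0526 without WT replicate 2), and the cortical selector factor Lhx2 by 0.62 (adjusted p = 0.0106).

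Pax6, the radial glia factor, rose by 0.61 on the log2 scale (adjusted p = 0.0185), though its estimated counts were fractional in every library, as they are where reads are divided between features, and its call was lost without WT replicate 2 (adjusted p = 0.0737). The Notch effector Rbpj rose by 0.35 (adjusted p = 0.00591) and its target Hes1 by 0.49 from a low level, 4.04 ± 0.408 to 5.68 ± 0.635 CPM (adjusted p = 0.0445). The call of Hes1 held only when the library left out was KD replicate 1, with adjusted p up to 0.127. For Hes5, another Notch target, the log2 fold change was 0.07 (adjusted p = 0.736). Sox9, which induces Nfia in glial progenitors, had a log2 fold change of 0.26 from 62.4 ± 8.65 to 74.7 ± 6.19 CPM. It passed with the block and not without it (adjusted p = 0.0280 and 0.0943), and also without WT replicate 3 (adjusted p = 0.0414). Zbtb20, a factor of late progenitors, likewise had 0.38 (adjusted p = 0.0880, 0.0113 with the block and 0.00844 without WT replicate 3), with fractional counts. The 2 genes lower with the block were Sox10 and Olig2, both of the oligodendrocyte lineage.

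The glial genes that NFI factors are known for were called, in the unpaired fit, at about the rate of all genes. Of 20 such genes 19 were tested (S100b was not), and 2 were called higher and 2 lower, or 2 higher and 4 lower with the block, with a median log2 fold change of -0.02. The unpaired counts are near the shares of all genes, 12% higher and 11.9% lower (18.6% and 18.1% with the block). Apcdd1, which NFIA and SOX9 activate together in the spinal cord, went from 21.4 ± 5.55 to 41.7 ± 4.16 CPM (log2 fold change 0.96, adjusted p = 0.00475, edgeR). The matrix gene Tnc rose from 209.7 ± 33.7 to 319.8 ± 27.9 CPM (0.61, adjusted p = 0.00530). Cspg5, a brain proteoglycan, fell by 0.27 on the log2 scale (adjusted p = 0.00994), and Atp1b2, a sodium pump subunit, fell by 0.20 (adjusted p = 0.0482). The call of Atp1b2 held only when the library left out was KD replicate 3, with adjusted p up to 0.163. Several well-known glial genes of the list were not called. Gfap, the astrocyte filament, averaged 7.50 ± 1.88 CPM in the WT libraries and 6.02 ± 1.09 CPM in the KD ones (log2 fold change -0.32, adjusted p = 0.288). On the same scale Fabp7 stood at 0.05 (adjusted p = 0.601), the glutamate transporter Slc1a3 at -0.02 (adjusted p = 0.925) and Aldoc at 0.12 (adjusted p = 0.479).

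**Figure D4:**
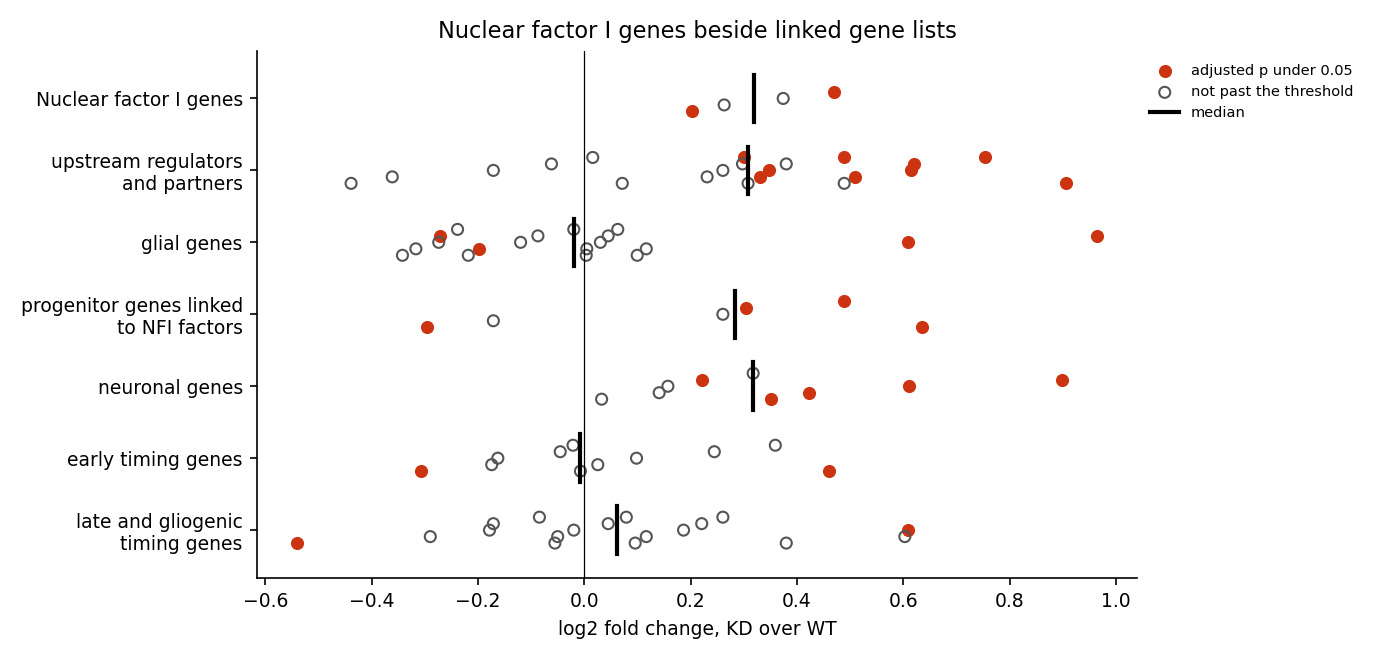
Log2 fold change, KD over WT, of the 4 NFI genes and of the tested members of 6 linked gene lists in the unpaired edgeR fit. Red points passed the adjusted threshold of 0.05 and open points did not, and the black bar is the median of a list. Some genes are in several lists. The medians lie at 0.32 for the NFI genes, 0.31 for upstream regulators and 0.32 for neuronal genes, and near 0 for glial and early timing genes.

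Another list holds 7 genes linked to NFI factors in progenitors, most of them as genes that the factors repress. Hes1, Sox9 and Olig2 in it are also in the list of upstream regulators, so these lists are not separate. Of the 6 tested (Insc was not), 3 were called higher and 1 lower, or 4 and 2 with the block, with a median log2 fold change of 0.28, beside 12% of all genes higher and 11.9% lower (18.6% and 18.1% with the block). Ezh2, the histone methyltransferase of Polycomb, went from 48.5 ± 3.03 to 75.4 ± 7.73 CPM (log2 fold change 0.63, adjusted p = 0.00146, edgeR). Bbx, an HMG-box gene, rose from 16.6 ± 0.650 to 20.4 ± 1.94 CPM (0.30, adjusted p = 0.0429), and Hes1 is given above. Mapt, which encodes the microtubule protein tau, fell by 0.30 (adjusted p = 0.0147). The number called higher was 1 without WT replicate 1, WT replicate 2 or KD replicate 2. The call of Bbx held only when the library left out was KD replicate 3 (adjusted p up to 0.134 otherwise), and that of Mapt was lost without KD replicate 2 (adjusted p = 0.0587).

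Neuronal genes that depend on NFI factors in some neurons, or that mark maturing cortical neurons, were also called in 1 direction. Of 9 tested among 10 (Gabra6 was not), 5 were called higher and 0 lower, and 8 higher and 0 lower with the block, with a median log2 fold change of 0.32. Of all genes 12% were called higher, and 18.6% with the block. Cntn2, an axonal adhesion molecule, was at 101, 120 and 150 CPM in WT replicates 1 to 3 and at 167, 167 and 166 CPM in KD (log2 fold change 0.42, adjusted p = 0.0307, edgeR). As with Nfia, the KD libraries were close together and the WT libraries spread. N-cadherin, Cdh2, rose from 467 ± 32.5 to 545 ± 15.1 CPM (0.22, adjusted p = 0.0225). The guidance receptor Nrp1 rose by 0.61 (adjusted p = 0.00426), and Neurod1, a factor of newborn neurons, by 0.90 from 15.4 ± 3.81 to 28.6 ± 0.721 CPM (adjusted p = 0.00371). Without WT replicate 2 or KD replicate 2 the number called higher was 2. The call of Cntn2 was lost without WT replicate 2 or any KD library (adjusted p up to 0.104), and that of Cdh2 without WT replicate 1 or either replicate 2 library (adjusted p up to 0.0838).

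Because NFI levels climb as cortical progenitors age, genes of early and late progenitors were set beside them. Of 15 early genes 11 were tested (Lin28a, Trim71, Fgf15 and Crabp2 were not), and 1 was called higher and 1 lower, or 2 and 1 with the block, with a median log2 fold change of -0.01. The unpaired counts are near the shares of all genes, 12% higher and 11.9% lower (18.6% and 18.1% with the block). The secreted Wnt modulator Sfrp1 rose by 0.46 (adjusted p = 0.00617, edgeR) and the chromatin protein Hmga1 fell by 0.31 (adjusted p = 0.0168), a call that was lost when KD replicate 3 or either replicate 2 library was omitted (adjusted p up to 0.0704). The estimated counts of Hmga1 were whole in only 3 libraries. Hmga2 was barely present, with means of 0.697 ± 0.124 CPM (WT) and 0.748 ± 0.247 CPM (KD). Of 18 late and gliogenic genes 1 (Tnc) was called higher and 1 (Olig1) lower, or 6 and 4 with the block, with a median of 0.06. The unpaired counts were thus below those shares, and the counts with the block were above them. Without WT replicate 3 the number called higher was 6. Olig1, of the oligodendrocyte lineage, fell by 0.54, from 196.9 ± 27.6 to 135.5 ± 16.6 CPM (adjusted p = 0.0105). The NFI genes and these late genes therefore had different medians, and that difference was not tested.

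Markers of the cell types in the cultures were compared in the same way, since NFI levels differ between cell types. Of 7 tested intermediate progenitor markers 5 were called higher and 0 lower (6 and 0 with the block, median log2 fold change 1.26), beside 12% and 11.9% of all genes (18.6% and 18.1% with the block). Eomes, their defining factor, was at 16.4, 6.79 and 10.3 CPM in WT and 46.5, 26.5 and 26.6 CPM in KD replicates 1 to 3 (log2 fold change 1.57, adjusted p = 0.00813, edgeR). Unlike Nfix, it was highest in replicate 1 of both groups. Radial glia markers had 3 of 12 called higher and 0 lower (7 and 0 with the block, median 0.26). Of these 3, Pax6 and Hes1 were already counted among the upstream regulators. Neuron markers had 1 of 10 called each way, which is about the share of all genes (4 higher and 1 lower with the block, median 0.05), with Tubb3 at -0.06 (adjusted p = 0.699). Of 8 ventral interneuron markers 1 (Dlx2) was called higher and 0 lower, but 2 each way with the block. Dlx2 rose by 1.23 on the log2 scale (adjusted p = 0.000959, edgeR, and 1.08e-07 with the block). Dlx1 rose by 0.35 and passed with the block (adjusted p = 0.000108). Gad1 and Slc32a1, of GABA synthesis and transport, were lower with the block (adjusted p = 0.00165 and 0.000230). Astrocyte markers had 0 of 7 called either way (median -0.12), also with the block, with a sum over the tested markers of 268 to 320 CPM in WT and 253 to 280 CPM in KD. Oligodendrocyte lineage markers had 0 higher and 2 of 8 lower (0 and 4 with the block, median -0.15). All 8 microglia markers together, tested or not, summed to 1.85 to 3.16 CPM in WT and 2.12 to 2.83 CPM in KD, and the only one tested, C1qa, was not called. All 8 endothelial and pericyte markers summed to 7.65 to 9.72 CPM in WT and 10.5 to 12.7 CPM in KD. These sums did not overlap, but most of the KD sum was the pericyte receptor Pdgfrb, and without it the groups overlap. Of the 3 tested, Pdgfrb rose from 5.51 ± 1.65 to 9.08 ± 1.12 CPM (log2 fold change 0.72, adjusted p = 0.0318). Pecam1 and Kdr overlapped between the groups and were not called. None of these markers was at 0 in all 6 libraries. Of 8 meningeal markers 3 were tested and 0 called, also with the block. The part of a shift between cell types in the NFI levels was not tested.

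Finally, the genes whose levels followed each NFI gene most closely were found, by the root mean square difference of log2 CPM, centred on the WT mean, over the 6 libraries and among 11438 other genes. For Nfia these were Irf2bp2 (0.055), Ltbp3 (0.057) and Sox9 (0.062), against a median of 0.275 over genes. For Nfib they were Inhbb (0.049), Il17ra (0.069) and Neurod2 (0.079), against 0.419. For Nfic they were Sp3 (0.018), Ncaph2 (0.022, with fractional counts) and Abl1 (0.025, with counts whole in only 1 library), against 0.198. For Nfix they were Mid1 (0.080), Lmo7 (0.107) and Vxn (0.122), against 0.558. Each of these 3 shared the low replicate 1 of Nfix. Mid1 was at 13.47, 27.3 and 27.8 CPM in WT and 20.1, 37.5 and 35.2 CPM in KD replicates 1 to 3. The members were not each other's nearest genes. Nfib ranked 42 for Nfix, Nfia ranked 207 for Nfib, Nfic ranked 1192 for Nfia and Nfia ranked 4402 for Nfic. By the difference itself the closest pair in the family was Nfia and Nfic (0.166), beside medians over genes of 0.275 and 0.198. For Nfic, Nfib ranked 9339 and Nfix 11053, farther than most genes. Neurod2, a factor of excitatory neurons and the only one of the Nfib neighbours past the unpaired threshold, rose by 0.46 (adjusted p = 0.0162, edgeR), and of the neighbours of Nfic only Abl1 passed it (0.23, adjusted p = 0.0237). Neurod2 did not pass without KD replicate 2 (adjusted p = 0.0631), nor Abl1 without WT replicate 2 or KD replicate 1 (adjusted p up to 0.0911). With the block the other 10 of these 12 neighbours passed as well, with adjusted p from 0.000265 (Mid1) to 0.0416 (Irf2bp2). All of these genes were chosen for following a member over the same 6 libraries. Their calls therefore largely repeat those of the members and are not separate support for them. Irf2bp2 and Inhbb also passed without WT replicate 3 (adjusted p = 0.0450 and 0.0241).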

How the data were processed

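RNA was measured in 6 libraries, 3 WT and 3 KD, grouped and numbered by their titles. The columns call WT Ctrl, and each was matched by number. The submitters' processing notes name HISAT2 2.2.1, Bowtie2 2.4.5 and RSEM 1.3.1 and the build GRCm38 (mm10), and the gene annotation used is not given in the sources used here. The authors deposited estimated counts, TPM and FPKM per gene. Between 89.3% and 89.9% of the estimated counts of a library were whole (within 0.005), and they were rounded. The deposited TPM was used to compare genes and sum the family, and the deposited FPKM only for effective lengths. The authors' group averages were not used.

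Counts were tested with edgeR 4.0.16 (R 4.3.3; TMM, filterByExpr with a minimum count of 10, quasi-likelihood F-test, Benjamini-Hochberg over 13669 genes, threshold 0.05), without a block, and the code was tested on simulated data. The SE is the absolute log2 fold change over the square root of F. Same-numbered libraries deviated together from their group means. Their r over genes was 0.155 to 0.324, against -0.262 to -0.00886 for other numbers, so the number was taken as a pairing. Deviations within a group cancel out, so positive values at equal numbers partly force negative ones at other numbers. The pairing was not otherwise tested, and calls made only with the block rest on it. Blocked values or counts are given beside unpaired calls that they change. The meaning of the numbers is not given, and the design text speaks of 3 sequencing batches without tying them to numbers. Replicates differed by more than sampling noise. The study states 3 independent experiments.

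Alternatives were other scalings, filters, DESeq2 1.42.0, limma 3.58.1 (voom, or trend on log2(TPM + 1)), the block, omission of each library and, added after the data were seen, of both libraries of a number. Named genes were the members, Ybx1, 18 genes fixed by name, up to 3 called genes of at least 5 CPM per direction in each list, and the 3 nearest genes to each member. The members and lists were chosen with earlier results of these data known. The lists share genes, so the same call can be counted in several of them. A few other genes of the lists are named for their counts after their values were seen.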

Additional observations from a re-analysis of the deposited data

How the results depend on the processing

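No alternative fit turned the direction of Nfia, Nfib, Nfic, Nfix or Ybx1, but the calls of the NFI genes lie near the threshold and depend on the test. Nfia passed with the replicate block (log2 fold change 0.27) and without replicates 3 (0.40), and Nfix with the block (0.41) and without replicates 1 (0.32). Nfib no longer passed with upper quartile scaling (0.45), DESeq2 (0.47) or without replicates 2 (0.44). Nfic no longer passed with upper quartile scaling (0.18), DESeq2 (0.20), limma-voom (0.20), limma-trend on TPM (0.24) or without replicates 1, 2 or 3 (0.15, 0.23 and 0.23). The cause was not tested. Leaving out a single library gave 0.14 to 0.39 for Nfia (0.11 without both replicates 1), 0.30 to 0.61 for Nfib, 0.14 to 0.24 for Nfic and 0.093 to 0.63 for Nfix. It gave ratios of the summed TPM of 1.15 to 1.56, with WT replicate 1 behind the lowest.

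The log2 ratios between members, KD minus WT, ranged over such omissions from -0.31 to -0.12 for Nfia to Nfib, -0.062 to 0.19 for Nfia to Nfic, -0.43 to 0.091 for Nfia to Nfix, 0.092 to 0.43 for Nfib to Nfic, -0.12 to 0.24 for Nfib to Nfix and -0.55 to 0.15 for Nfic to Nfix. Among uncalled genes the sign turned for Hes5 (-0.092 without replicates 1, and -0.08 to 0.21 over single omissions), Slc1a3 (0.00299 with total counts, 0.045 with limma-trend, 0.07 without replicates 3, and -0.12 to 0.15), Fabp7 (-0.026 without replicates 1, -0.012 to 0.081 over single omissions and 0.10 without replicates 2), Hmga2 (-0.027 without replicates 2, and -0.14 to 0.33) and Tubb3 (-0.14 to 0.025).

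Over all genes, 1646 were higher and 1631 lower (50.2% of calls higher). The block gave 2539 and 2470, an adjusted p under 0.01 gave 629 and 634, omission of replicates 1 gave 1030 and 942 and of replicates 2 gave 169 and 124, and omission of 1 library gave 784 to 1612 and 800 to 1582. Limma-trend on TPM gave 2076 and 1072 (65.9% higher), and no scaling moved the median of all genes by over 0.05 on the log2 scale. The block brought Sox9, Zbtb20 and the uncalled nearest genes past the threshold, and it ended no call of a named gene. With 3 libraries a group, the calls of Nfib and Nfic change with the omission of 1 library.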
